A study of Homo sapiens with 8 samples.

Results

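The genes described here are 10 members of the S100 family, S100A2, S100A3, S100A4, S100A6, S100A10, S100A11, S100A13, S100A14, S100A16 and S100P, measured by 14 probe sets out of the 18132 genes and 49395 probe sets of the array. They were chosen on the comparison of USF1 knockdown with its controls, because S100A4 was among the genes that differed most there, and every probe set annotated with exactly 1 of these symbols was taken. Their values in that comparison are therefore given as a description, with no p-value for any of them.

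The arrays measured total RNA of H1299, a human non-small cell lung carcinoma line. The 4 groups were USF1 knockdown cells (3 arrays) and their controls (3 arrays), and UGT1A3 knockdown cells (1 array) and their control (1 array), each knockdown made by transfected short hairpin RNA. USF1 is a transcription factor that binds E-box DNA as a dimer, and UGT1A3 is an enzyme that attaches glucuronic acid to lipophilic compounds. All groups were the same line in serum-containing medium, and the sources used here give neither the hairpin sequences, the time after transfection nor what the control cells received. The labels do not say whether replicate arrays stand for separate cultures. The p-values cover the spread between these arrays alone, and that spread may be technical.

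S100 proteins are small calcium sensors of vertebrates built from a pair of EF-hand loops. Most act as dimers: calcium opens a hydrophobic face of the protein, which then grips a partner such as a myosin, an annexin or a kinase. Many S100 proteins also leave the cell and signal through surface receptors, and several, S100A4 above all, have been studied in carcinoma spread. Most S100 genes sit side by side in the epidermal differentiation complex of chromosome 1. Of the 10 genes described here 9 lie on that chromosome, and S100P lies on chromosome 4.

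USF factors bind many genes near their starts, so the windows at the starts of S100A4 and of the next genes along the chromosome, S100A3 and S100A2, are shown with that of S100P, the member outside the cluster that was not higher in the knockdown. Each is the RefSeq window of build GRCh38.p14, 250 bases before to 50 after the annotated start, written 5′ to 3′ on the gene's strand. Capitals mark the E-box pattern CANNTG and the TATA-box letters TATAAA.
S100A4, chr1:153545757-153546056, minus strand: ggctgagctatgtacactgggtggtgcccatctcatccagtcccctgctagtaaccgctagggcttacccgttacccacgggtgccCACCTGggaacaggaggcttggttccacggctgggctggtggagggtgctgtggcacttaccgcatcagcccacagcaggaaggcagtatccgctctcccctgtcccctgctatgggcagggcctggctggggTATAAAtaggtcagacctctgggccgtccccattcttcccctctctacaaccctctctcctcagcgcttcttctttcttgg
S100A3, chr1:153549209-153549508, minus strand: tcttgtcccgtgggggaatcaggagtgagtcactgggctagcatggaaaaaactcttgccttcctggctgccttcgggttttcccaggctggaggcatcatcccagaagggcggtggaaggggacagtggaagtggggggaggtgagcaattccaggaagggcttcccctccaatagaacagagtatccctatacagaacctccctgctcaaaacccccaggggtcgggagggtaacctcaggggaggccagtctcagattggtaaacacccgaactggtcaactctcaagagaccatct
S100A2, chr1:153565795-153566094, minus strand: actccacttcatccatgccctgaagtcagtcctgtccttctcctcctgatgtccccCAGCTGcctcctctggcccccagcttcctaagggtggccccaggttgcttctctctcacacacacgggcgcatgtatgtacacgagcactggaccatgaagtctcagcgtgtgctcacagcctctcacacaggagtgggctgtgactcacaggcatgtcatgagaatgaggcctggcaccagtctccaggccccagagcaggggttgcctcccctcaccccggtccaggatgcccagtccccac
S100P, chr4:6693628-6693927, plus strand: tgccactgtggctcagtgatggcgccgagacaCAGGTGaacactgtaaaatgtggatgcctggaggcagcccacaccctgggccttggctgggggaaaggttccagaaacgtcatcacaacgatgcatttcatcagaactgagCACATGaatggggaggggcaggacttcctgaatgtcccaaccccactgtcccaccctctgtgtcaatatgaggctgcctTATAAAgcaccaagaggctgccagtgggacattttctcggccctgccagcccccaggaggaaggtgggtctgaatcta

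The S100A4 window held 1 CANNTG, with its first base 164 bases before the start, and TATAAA 31 bases before the start. The S100A3 window held neither. The S100A2 window shown, the one farther upstream of 2 windows for this gene, held a CANNTG 194 bases before the start, and the S100P window held CANNTG 218 and 107 bases before the start and TATAAA 28 bases before it. The palindrome CACGTG, the E-box form that USF factors are best known to bind and itself a form of CANNTG, was in 0 of the 14 windows of the 10 genes, against 7.25% of all 35097 windows. CANNTG, which reads the same on both strands as a pattern, was in 10 of the 14 windows, against 68.7% of all windows. TATAAA, searched on the gene's strand only, was in 3 of the 14 windows, those of S100A4, S100P and 1 start of S100A13, against 7.33% of all windows. These letters describe the windows and show neither binding nor its absence.

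The targeted gene was lower in its knockdown. USF1 read 6.06, 5.88 and 6.13 on the 3 knockdown arrays, against 6.31, 6.55 and 6.42 on the 3 control arrays, all as log2 intensity. The groups did not overlap, and the difference, knockdown minus control as everywhere below, was -0.40 (SE 0.08, adjusted p = 0.00818, limma with Benjamini-Hochberg adjustment over 11448 genes). That is 0.76 of the control intensity. The single USF1 probe set was not bright: its mean of 6.23 lay near the limit of 5.63 used below for dim probe sets. USF2, the close relative that pairs with USF1, differed by -0.02 (SE 0.03, adjusted p = 0.655). No probe set listed UGT1A3 alone. The 9 probe sets that list it also list other UGT1A genes, and all 9 were dim. In the UGT1A3 pair they differed by -0.45 to 0.06, with 8 of the 9 lower on the knockdown array. Being dim and shared, they could not check this knockdown for UGT1A3 alone. The median log2 intensity was 6.53 to 6.55 on the USF1 arrays, against 5.63 on the UGT1A3 knockdown array and 5.59 on its control, so levels were compared only within each set, and the number of arrays limits the precision.

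Of the 10 members, 7 had a probe set above the dim limit, log2 5.63, on the USF1 arrays, and 8 had one above the limit of 4.76 set for the UGT1A3 pair. These limits are the 40th percentile of the probe set means of each set, and 11 and 12 of the 14 probe sets passed them.

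S100A4, also called metastasin, binds the heavy chain of nonmuscle myosin IIA and loosens myosin filaments. It was higher after USF1 knockdown on every one of its 3 probe sets. On the brightest, 11756146_x_at, it read 9.34, 9.38 and 9.33 on the knockdown arrays, against 8.02, 7.98 and 8.22 on the control arrays. On 11718064_a_at it read 8.894, 8.998 and 8.872 on the knockdown arrays, against 7.62, 7.66 and 7.79 on the control arrays. On 11723006_a_at it read 8.76, 8.81 and 8.79 on the knockdown arrays, against 7.48, 7.56 and 7.65 on the control arrays. The lowest knockdown array lay 1.08 to 1.12 log2 units above the highest control array, depending on the probe set. The differences were 1.28, 1.23 and 1.22, and the first is a 2.43-fold higher intensity (SE 0.06 on the log2 scale). Ordered by difference from the highest, S100A4 stood at 2 of 11448 genes tested. The x in the name of the brightest probe set marks probes that may also match other transcripts, and the other S100A4 probe sets carry no such mark. In such bulk RNA, more cells that express a gene and more of its RNA per cell cannot be told apart.

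S100A3, known for its abundance in the cuticle of hair, and S100A2, an S100 protein of basal epithelial cells, lie next to S100A4 on the chromosome. S100A3 was dim. It read 5.89, 6.00 and 5.82 on the knockdown arrays, against 5.44, 5.21 and 5.06 on the control arrays, and the groups did not overlap. Its mean over the 6 arrays, 5.57, was just under the limit of 5.63, so it was left out of the fit across genes. When dim probe sets were kept, its difference was 0.67 (SE 0.10), or 1.59-fold. S100A2 read 9.23, 9.23 and 9.13 on the knockdown arrays, against 8.63, 8.76 and 8.76 on the control arrays. All 3 knockdown arrays were above all 3 controls, with a difference of 0.48 (SE 0.05), or 1.39-fold, which placed it at 131 of 11448.

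S100A10 is the S100 protein that takes its binding-competent shape without calcium. Its usual partner is annexin A2, with which it forms a complex that binds plasminogen at the cell surface. On its brighter probe set it read 11.98, 12.03 and 11.96 on the knockdown arrays, against 11.66, 11.62 and 11.69 on the control arrays. The groups stood apart, and the difference was 0.33 (SE 0.03), or 1.26-fold, at 496 of 11448. The name of this probe set carries the x mark too, and the other S100A10 probe set, without it, differed by 0.31.

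S100A11, a partner of annexin A1, and S100A16, one of the most widely expressed S100 proteins, were bright and differed little. S100A11 read 12.43, 12.44 and 12.38 on the knockdown arrays, against 12.26, 12.28 and 12.30 on the control arrays, a difference of 0.13 (SE 0.03). S100A16 read 11.86, 11.86 and 11.83 on the knockdown arrays, against 11.69, 11.68 and 11.69 on the control arrays, a difference of 0.16 (SE 0.03). Its second probe set read 11.72, 11.67 and 11.67 on the knockdown arrays, against 11.40, 11.45 and 11.44 on the control arrays, a difference of 0.26. Neither gene's groups overlapped, and both differences were small beside that of S100A4.

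S100A13 helps FGF1 leave the cell by a route outside the secretory pathway. It read 11.97, 11.97 and 11.95 on the knockdown arrays, against 11.89, 11.93 and 11.93 on the control arrays. The groups were separated by only 0.02, and the difference was 0.05 (SE 0.03). S100P, which binds ezrin and the receptor RAGE and is high in many pancreatic carcinomas, read 5.77, 5.72 and 5.96 on the knockdown arrays, against 5.86, 5.84 and 5.93 on the control arrays. Its groups overlapped, with a difference of -0.06 (SE 0.06).

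S100A6, called calcyclin, and S100A14, an S100 protein of epithelia, stayed dim in both sets. S100A6 read 3.89, 3.76 and 4.06 on the knockdown arrays, against 3.74, 3.81 and 3.93 on the control arrays, and the groups overlapped. S100A14 read 4.47, 4.59 and 4.62 on the knockdown arrays, against 4.59, 4.51 and 4.65 on the control arrays, again with overlap. A dim probe set gives no level for these genes, so nothing is said of their abundance.

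**Figure D1:**
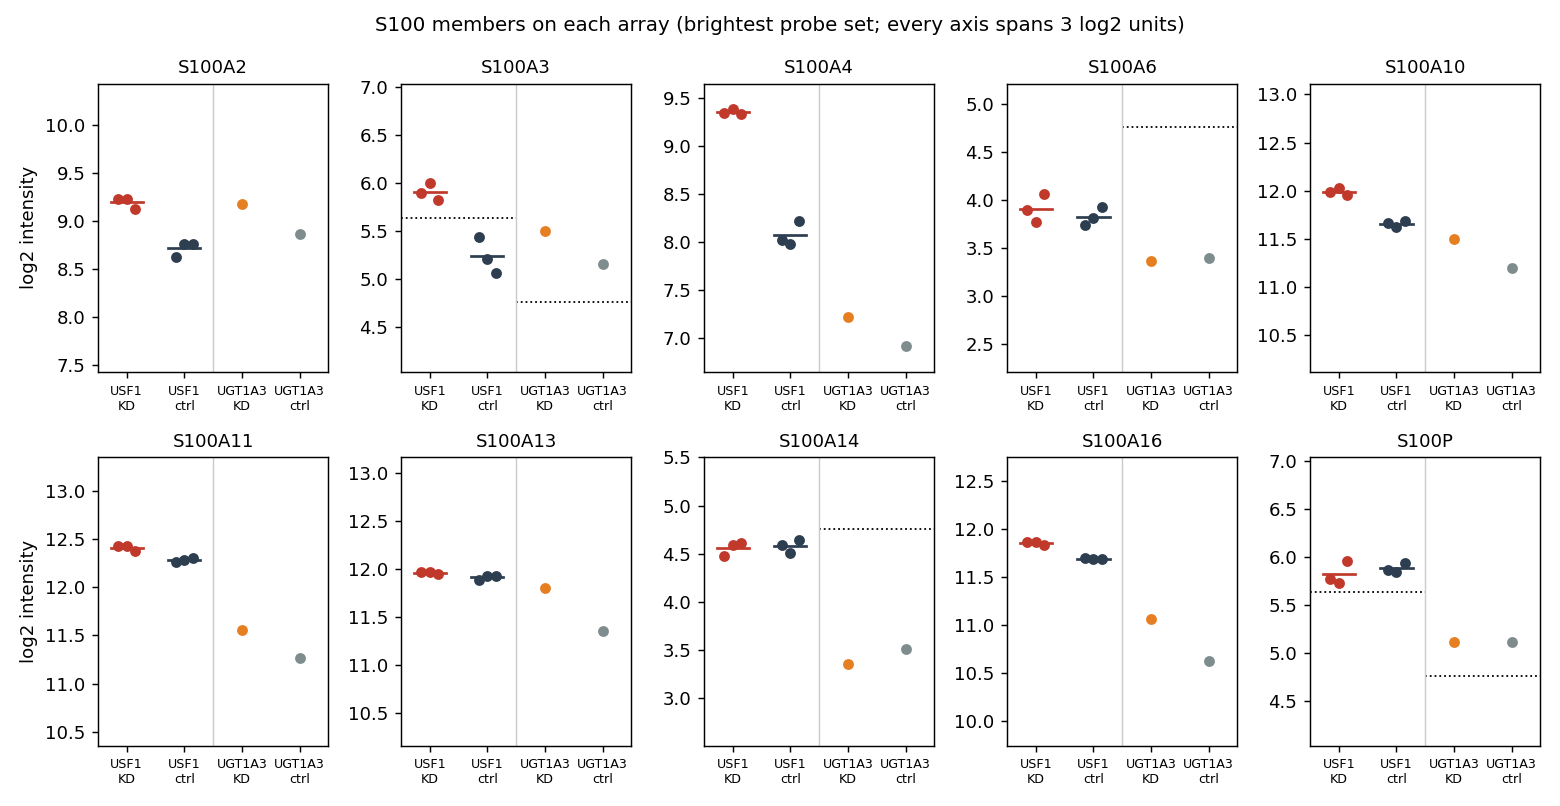
Log2 intensity of the 10 S100 genes on each array, each shown by its brightest probe set in the USF1 arrays, with every vertical axis spanning 3 log2 units. Points are arrays, bars are group means of 3 arrays, and the dotted line is the dim limit, drawn where it falls inside a panel; S100A4 shows the widest separation of USF1 knockdown (left) from control.

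Over the whole fit, 22.0% of the 11448 genes tested passed the threshold upward and 18.7% downward (adjusted p of at most 0.05). Of the 7 S100 genes in this fit, 5 passed upward (S100A2, S100A4, S100A10, S100A11 and S100A16) and 0 passed downward, also 0 at an unadjusted p under 0.05 in limma. The knockdown arrays lay above all control arrays for 6 of the 7, against 29.0% of all genes, and below all control arrays for 0 of the 7, against 24.6%. The median difference of the 7 was 0.16, against 0.01 for all genes tested. Because the family was picked on this comparison, nothing is read from these counts. Leaving out USF1 control replicate 1 removed S100A11 from the upward count. With USF1 control replicate 2 or 3 left out, S100A3 entered the tested genes and the count was 6. S100A3 entered only because leaving out a low control array raised its mean past the limit. Its control mean, 5.23, lay under the limit and its knockdown mean, 5.90, above it, so this gain says nothing more about S100A3. Without USF1 knockdown replicate 3, S100P passed downward with a difference of -0.13.

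In the UGT1A3 pair, 7 of the 8 S100 genes above the dim limit were higher on the knockdown array, against 52.1% of all 11620 genes. The differences had a narrower spread than after USF1 knockdown, and S100A4 was not the largest. With 1 array per group these differences have no replicate check. S100A13 read 11.81 on the knockdown array, against 11.36 on the control array, a difference of 0.45. S100A16 read 11.06 on the knockdown array, against 10.62 on the control array, a difference of 0.44 that its second probe set also gave (11.30 on the knockdown array, 10.86 on the control array). These were the largest differences in this pair among the 8 genes.

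S100A3 read 5.50 on the UGT1A3 knockdown array, against 5.16 on its control (0.34). S100A2 read 9.18 on the knockdown array, against 8.86 on the control (0.32). S100A10 read 11.50 on the knockdown array, against 11.20 on the control (0.30). These stood close to S100A11, which read 11.56 on the knockdown array, against 11.27 on the control (0.29). S100A4 differed by 0.24, 0.24 and 0.31 on its 3 probe sets, and the brightest in these arrays read 7.30 on the knockdown array, against 7.06 on the control. S100P read 5.11 on both arrays.

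The median over the 8 genes was 0.31, against 0.02 over all 11620 genes. Of the 8 genes 0 were at least 1.5-fold higher, against 2.15% of all genes, and 0 were at least 1.5-fold lower, against 1.41%. At a limit of 0.322 on the log2 scale, chosen after the values were seen, 3 of the 8 were higher (S100A3, S100A13 and S100A16), against 11.1% of all genes, and 0 were lower, against 8.02%. S100A2, at 0.317, fell just short of that limit. S100A3 fell out of the count, leaving 2, with the arrays centred on their medians (0.31) and with 16 intensity units added (0.24). The 4 S100 genes with a mean log2 intensity of at least 10 belong to a class of 1408 genes whose median difference in this pair was 0.00 and whose quartiles were -0.12 and 0.11. Whether these differences repeat cannot be told with 1 array per group.

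**Figure D2:**
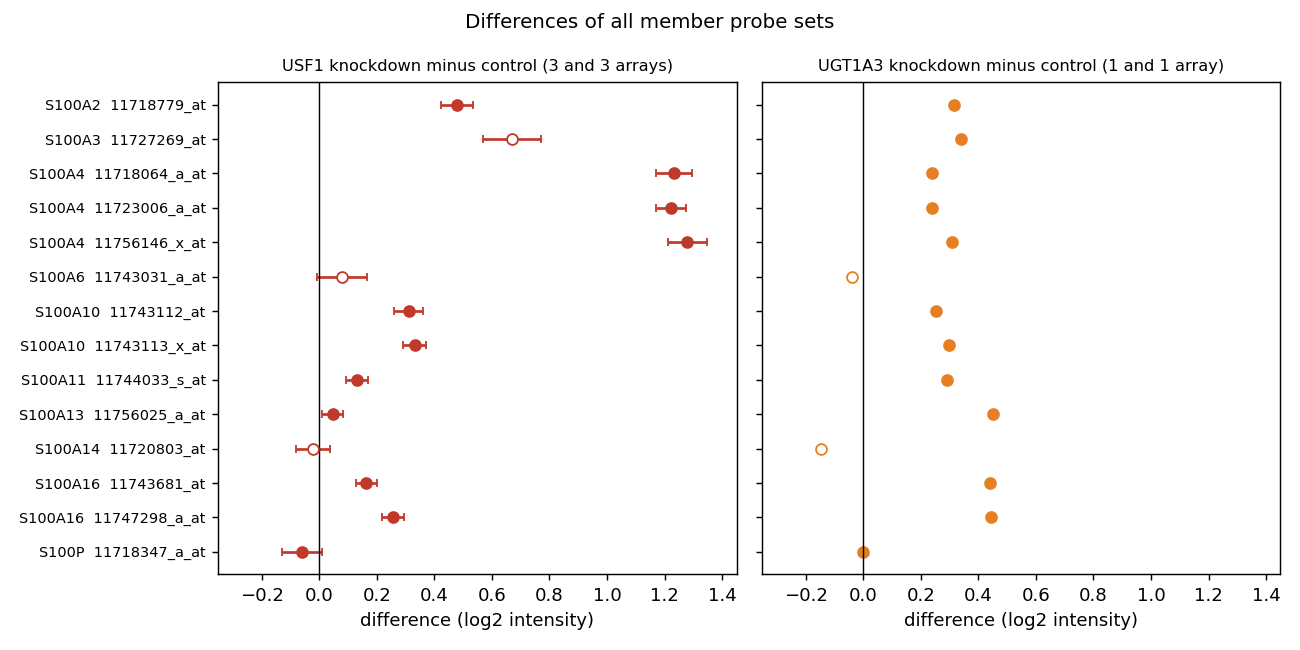
Difference in log2 intensity, knockdown minus control, for all 14 S100 probe sets after USF1 knockdown (left, 3 arrays each, bars ± 1 SE from the fit of single probe sets with no filter) and in the UGT1A3 pair (right, 1 array each, no error). Open points are probe sets under the dim limit; the 3 S100A4 probe sets lie at 1.22 to 1.28 on the left and at 0.24 to 0.31 on the right.

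The order of the genes on chromosome 1 set S100A4 between S100A5 and S100A3. On the S100A3 side the differences after USF1 knockdown were 0.67 for the dim S100A3, 0.48 for S100A2 and 0.16 for S100A16. Then came -0.02 for the dim S100A14, 0.05 for S100A13 and 0.03 for S100A1 (SE 0.15, adjusted p = 0.893). On the other side S100A5 and S100A6, both dim, differed by 0.22 and 0.08. These values belong to the comparison that chose the family, so no trend with position is read from them. In the UGT1A3 pair the differences were 0.24 for S100A4, 0.34 for S100A3 and 0.32 for S100A2. They were 0.44 for S100A16 and 0.45 for S100A13, and all of these genes were above the dim limit of that pair. S100A1, the next gene, differed by -0.13 there, and the dim S100A14 by -0.15. S100A10 and S100A11 also lie on chromosome 1 but outside this stretch.

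The genes annotated within 500 kb of the start of S100A4, S100 genes left aside, numbered 25. A probe set was found for 24, and 12 could be tested. Of these, 4 rose and 2 fell, against 22.0% and 18.7% of all genes tested, and 6 did not pass, with a median of 0.01. Among those past the test, RAB13, a small GTPase of tight junction traffic, rose by 0.34 (SE 0.03, adjusted p = 0.000207), and SNAPIN, a SNARE-associated protein, rose by 0.31 (SE 0.03, adjusted p = 0.000272). CHTOP, an mRNA export factor, changed by -0.27 (SE 0.03, adjusted p = 0.000791), and GATAD2B, a subunit of the NuRD complex, changed by -0.26 (SE 0.04, adjusted p = 0.00349). CHTOP and SNAPIN are next to each other and moved in opposite directions. Leaving out USF1 knockdown replicate 1 or USF1 control replicate 1 or 3 lowered the upward count to 2.

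**Figure D3:**
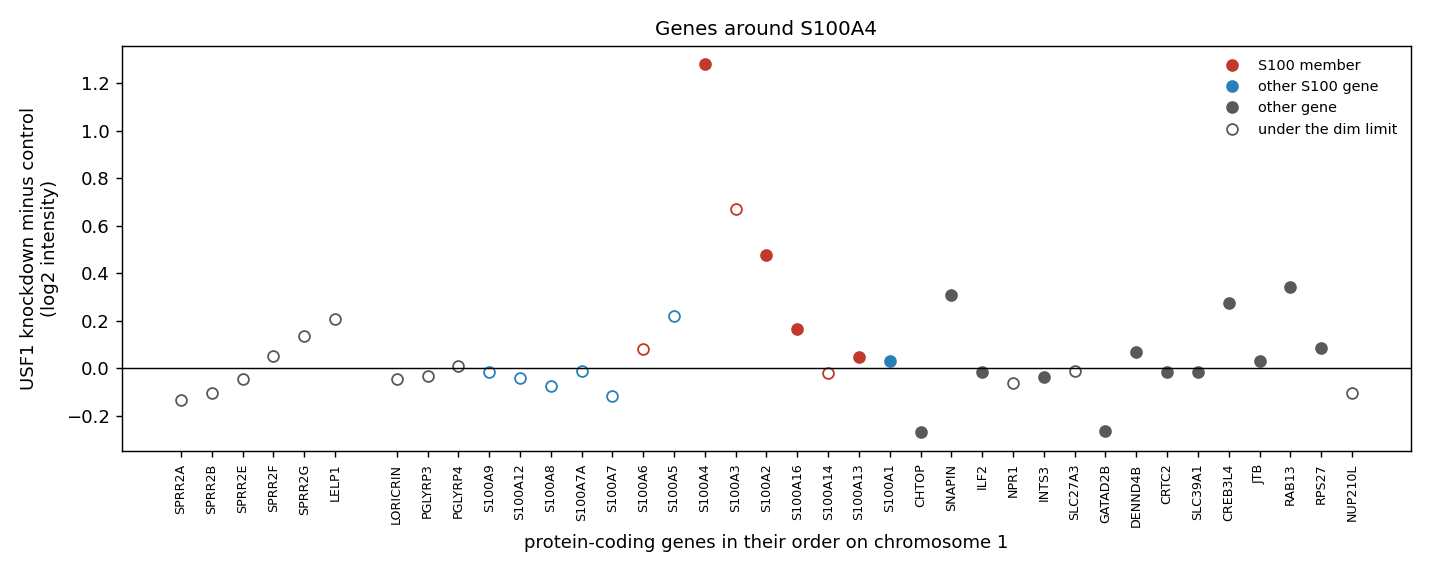
Difference in log2 intensity after USF1 knockdown (knockdown minus control, means of 3 arrays each) for protein-coding genes in their order along chromosome 1 around S100A4, each by its brightest probe set. Open points are under the dim limit; S100A4, S100A3 and S100A2 lie at 1.28, 0.67 and 0.48, and the neighbours on either side at 0.34 or less.

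The 11 S100 genes outside the 10 were nearly all dim. Of their 14 probe sets, 13 lay under the limit, with knockdown means of 3.21 to 4.72 and control means of 3.22 to 4.50. The exception was S100A1, whose difference is given above. S100PBP, which encodes a protein that binds S100P, was listed with them and makes 12. It changed by -0.14 (SE 0.04, adjusted p = 0.0276). Across its bright probe sets the difference ran from -0.14 to -0.05. Of the 12 genes, 2 were tested, with 0 upward (also 0 at an unadjusted p under 0.05 in limma) and 1 downward. Over all genes tested the shares were 22.0% upward and 18.7% downward. The S100PBP call was lost when USF1 knockdown replicate 1 or 3 or any one of the USF1 control replicates was left out, and also when dim probe sets were kept or its probe sets were averaged. In the UGT1A3 pair its 3 bright probe sets differed in sign, at 0.43, -0.11 and -0.07.

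Annexins bind membranes in the presence of calcium, and several do so joined to an S100 dimer. Of 13 annexin genes, 8 could be tested: 4 rose, 0 fell (also 0 at an unadjusted p under 0.05 in limma), and 4 did not pass. Over all genes tested 22.0% rose and 18.7% fell. Their median was 0.10, against 0.01 for all genes tested. ANXA6, an annexin of the plasma membrane and endosomes, rose by 0.31 (SE 0.04, adjusted p = 0.00111), and ANXA11, which links RNA granules to lysosomes, rose by 0.29 (SE 0.04, adjusted p = 0.00109). ANXA4 rose by 0.18 (SE 0.03, adjusted p = 0.00282) and was 0.51 higher on the UGT1A3 knockdown array. In that pair 4 of the 8 annexins were higher, against 52.1% of all genes, with a median of 0.06. ANXA1, the S100A11 partner, rose by 0.10 (SE 0.03, adjusted p = 0.0278), a call lost without USF1 knockdown replicate 1 or 3 or USF1 control replicate 2 or 3, and when dim probe sets were kept. ANXA2, the S100A10 partner, was named after its value was seen: it read 13.28, 13.21 and 13.24 on the knockdown arrays, against 13.15, 13.19 and 13.19 on the control arrays, and its difference of 0.06 did not pass (SE 0.03, adjusted p = 0.149). Its bright probe sets ran from -0.19 to 0.09, and with an intensity trend and robust prior in limma it passed at the same difference (adjusted p = 0.0156).

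Proteins reported to bind S100 proteins inside the cell made a list of 18, of which 16 were tested. Of these 6 rose and 3 fell, against 22.0% and 18.7% of all genes tested, and 7 did not pass, with a median of -0.00. FGF1, the growth factor that S100A13 accompanies out of the cell, rose by 0.40 (SE 0.07, adjusted p = 0.0047). SYT1, a calcium sensor of vesicle fusion found in the same release complex, rose by 0.30 (SE 0.06, adjusted p = 0.00947). NCL, the nucleolar protein nucleolin, changed by -0.25 (SE 0.03, adjusted p = 0.00159), and MYH10, the heavy chain of nonmuscle myosin IIB, by -0.24 (SE 0.04, adjusted p = 0.00393). In the UGT1A3 pair SYT1 was higher by 0.48 and MYH10 differed by -0.61. There 6 of the 16 genes were higher, against 52.1% of all genes, with a median of -0.13. MYH9, the heavy chain that S100A4 binds, and CACYBP, the calcyclin-binding protein, were named after their values were seen. MYH9 rose by 0.11 (SE 0.03, adjusted p = 0.0157), a call lost without USF1 control replicate 3, when dim probe sets were kept (adjusted p = 0.0589) and with its probe sets averaged (adjusted p = 0.0844). CACYBP differed by -0.04 without passing (SE 0.03, adjusted p = 0.291), over a range of -0.17 to -0.04 on its 3 bright probe sets. With its probe sets averaged CACYBP passed, at -0.11 (adjusted p = 0.0198). The upward count of this list was 3 when any one of USF1 knockdown replicates 1 and 2 or of the 3 control replicates was left out.

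Outside the cell, S100 proteins meet receptors such as RAGE, the product of AGER, and S100A10 and S100A4 are tied to the activation of plasminogen. Of 11 such genes 7 were tested: 3 rose and 1 fell, against 22.0% and 18.7% of all genes tested. The other 3 did not pass, and the median of the 7 was 0.09. PLAT, tissue plasminogen activator, rose by 0.29 (SE 0.03, adjusted p = 0.000894), with 7 bright probe sets that ran from 0.28 to 0.45. It was also 0.58 higher on the UGT1A3 knockdown array. Only 2 of the 7 genes were higher in that pair, against 52.1% of all genes, and their median there was -0.07. PLAU, the urokinase activator, changed the other way, by -0.21 (SE 0.03, adjusted p = 0.0022). BSG, which encodes basigin, rose by 0.14 (SE 0.04, adjusted p = 0.0183), and SERPINE2, an inhibitor of plasminogen activators, rose by 0.19 (SE 0.05, adjusted p = 0.0287). Both calls were lost when dim probe sets were kept, and without USF1 knockdown replicate 1 or USF1 control replicate 1 or 2, and that of SERPINE2 also without USF1 knockdown replicate 2 or USF1 control replicate 3. AGER, also named after its value was seen, differed by 0.09 without passing (SE 0.09, adjusted p = 0.438). Its 6 bright probe sets ran from -0.17 to 0.09. Leaving out USF1 knockdown replicate 1 or USF1 control replicate 1 or 2 lowered the upward count to 1.

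Genes listed for EF-hand proteins outside the S100 family, myosin light chains among them, numbered 23, with 18 tested. Of these 5 rose and 3 fell, against 22.0% and 18.7% of all genes tested, and 10 did not pass, with a median of 0.03. SDF4, a calcium-binding protein of the Golgi, changed by -0.47 (SE 0.03, adjusted p = 0.0001), and CAPNS1, the small subunit of the calpains, rose by 0.22 (SE 0.03, adjusted p = 0.00184). MYL12A, a regulatory light chain of nonmuscle myosin, rose by 0.17 (SE 0.03, adjusted p = 0.00289). EFHD2, also called swiprosin, changed by -0.41 (SE 0.04, adjusted p = 0.000317), while its 2 bright probe sets differed in sign, at -0.41 and 0.12. Averaging over all probe sets of a gene reduced SDF4 to -0.20, EFHD2 to -0.14 and MYL12A to 0.11, and gave 3 genes upward and 5 downward in this list.

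Factors reported to regulate S100 genes, among them the TCF and beta-catenin pair, AP-1 subunits and DNA methyltransferases, numbered 17, and all 17 were tested. Of these 4 rose and 3 fell, against 22.0% and 18.7% of all genes tested, and 10 did not pass, with a median of -0.03. JUND, an AP-1 subunit, rose by 0.23 (SE 0.04, adjusted p = 0.00355), and TCF7L2, the DNA-binding partner of beta-catenin, rose by 0.17 (SE 0.03, adjusted p = 0.00278). The 4 bright TCF7L2 probe sets ran from 0.004 to 0.17. FOSL2, JUN and LEF1 also passed and were named after their values were seen. FOSL2 rose by 0.18 (SE 0.05, adjusted p = 0.0273). JUN changed the other way, by -0.12 (SE 0.03, adjusted p = 0.0152), as did LEF1, by -0.16 (SE 0.04, adjusted p = 0.0161). The bright LEF1 probe sets ran from -0.18 to 0.03. DNMT1, the maintenance DNA methyltransferase, changed by -0.17 (SE 0.03, adjusted p = 0.00271). DNMT3A, a de novo methyltransferase, rose by 0.21 (SE 0.05, adjusted p = 0.0118), but its bright probe sets ran from -0.03 to 0.25, and averaging over all its probe sets gave 0.06 (adjusted p = 0.212). Without USF1 control replicate 1 or 2 the downward count was 1, and with an intensity trend and robust prior in limma it was 5.

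**Figure D4:**
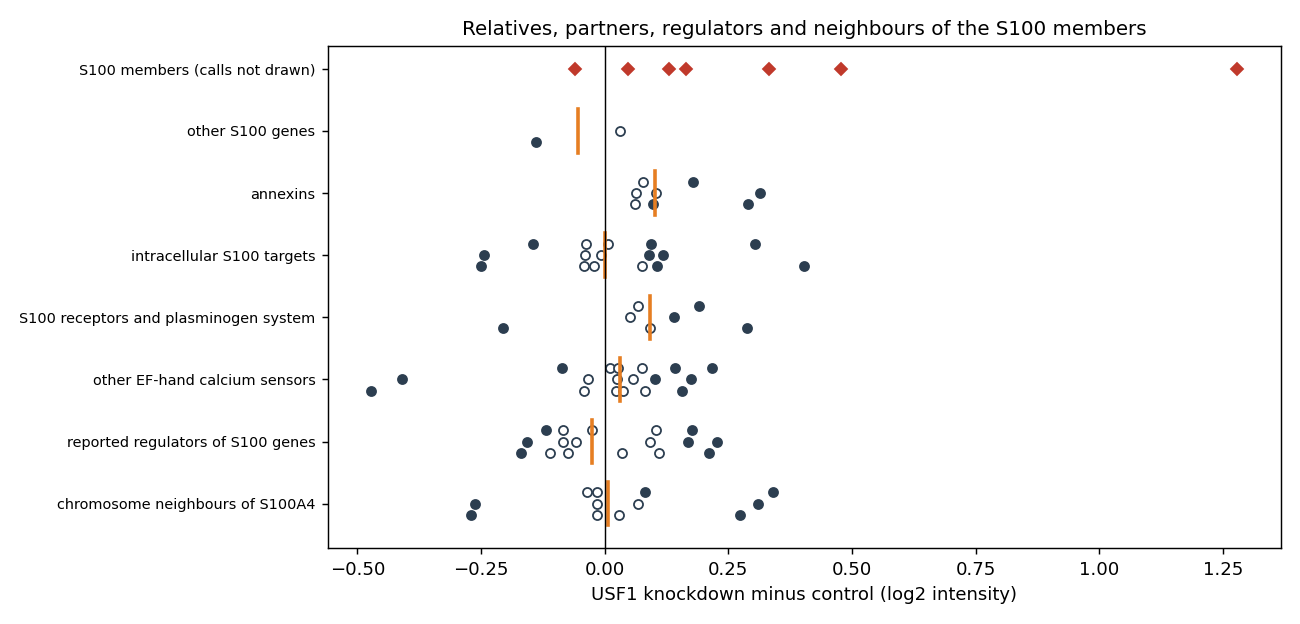
Difference in log2 intensity after USF1 knockdown (knockdown minus control) for tested genes of each list. Each point is a gene, filled where it passed an adjusted p of 0.05, the vertical bars are list medians, and the S100 genes (diamonds) are drawn without their calls; the annexin median lies at 0.10 and the intracellular target median at -0.00.

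The genes whose pattern lay nearest to that of S100A4 were found over 8 arrays and 11130 genes, with each value taken relative to the control mean of its own set and distance measured as a root mean square. This measure uses the same values that chose S100A4, so it is a description. The nearest was ID2, which blocks the DNA binding of E proteins, at a distance of 0.12: it was higher by 1.22 after USF1 knockdown and by 0.31 in the UGT1A3 pair, where the S100A4 probe set used here was also higher by 0.31. RECK, a membrane inhibitor of matrix metalloproteinases, followed at 0.22 (0.97 after USF1 knockdown and 0.55 in the UGT1A3 pair), though its bright probe sets ran from 0.10 to 0.97 after USF1 knockdown and their mean with the dim ones was 0.59. ABCA1, the cholesterol exporter, also stood at 0.22 (1.01 and 0.68 in the same order, and 0.59 after USF1 knockdown when its probe sets were averaged). APH1B, a gamma-secretase subunit, stood at 0.24 (0.95 and 0.58), with bright probe sets from 0.56 to 0.95 after USF1 knockdown. The tetraspanin gene CD82 stood at 0.28 (0.84 and 0.31). The ID2 and CD82 probe sets used here carry the x mark for probes that may also match other transcripts.

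S100A4 is also known as fibroblast-specific protein, so markers of other cells were examined. Of the 5 fibroblast markers, COL1A1, COL1A2, DCN and LUM lay under the dim limit, and only PDGFRB was above it, with a difference of 0.04 (adjusted p = 0.706). The summed intensity of these markers, as log2, was 7.24 to 7.39 on the knockdown arrays and 7.16 to 7.33 on the control arrays. For 5 leukocyte markers, with 2 above the limit, it was 9.73 to 9.79 on the knockdown arrays and 9.78 to 9.84 on the control arrays. For 4 endothelial markers, with 2 above the limit, it was 6.99 to 7.28 on the knockdown arrays and 7.02 to 7.25 on the control arrays. The brightest leukocyte marker, CD68, averaged 9.37 on the knockdown arrays and 9.46 on the control arrays. In these 3 lists only the markers above the limit were tested. Of those tested, 0 passed in limma, against 22.0% upward and 18.7% downward of all genes tested, and 0 had an unadjusted p under 0.05. The endothelial markers tested, PECAM1 and VWF, averaged 5.64 and 5.63 on the knockdown arrays, close to the limit of 5.63. PDGFRB, at 5.93, was also near it. Such values say little about the presence of other cells. Of the carcinoma line markers, KRT8 rose by 0.25 (adjusted p = 0.00197), while KRT18 and VIM differed by 0.04 and 0.00 without passing.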

How the data were processed

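H1299 total RNA was hybridised to 8 single-colour arrays, 1 sample each, per the labels. The authors deposited log2 intensities per probe set; the log base was read from the values. Per the submitters' processing notes MAS5 was used, with its role and any scaling between arrays not given in the sources used here. Of 49395 probe sets, 102 were controls, 44988 had 1 symbol, 1832 several and 2473 none; the symbols of 44961 probe sets matched a RefSeq table of GRCh38.p14, which gave gene names and order.

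Each gene was represented by its brightest probe set on average in the set, and probe sets under the 40th percentile of means (log2 5.63 in the USF1 arrays, 4.76 in the UGT1A3 pair) were not tested, which kept 11448 and 11620 genes. USF1 knockdown and control arrays were compared with limma 3.58.1 (R 4.3.3, lmFit and eBayes, without a replicate block), with Benjamini-Hochberg adjustment over all tested genes and a threshold of 0.05. The fit was tested on simulated data. Its total was 4657 genes called (2515 upward, 2142 downward). SE is limma's moderated error. The UGT1A3 pair gave differences only.

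Named genes were the 10 S100 genes, USF1, USF2, up to 4 genes per list with the smallest adjusted p (2 with the largest difference where none passed), and the 5 genes nearest to S100A4. The members and lists were chosen with earlier results of these data known. Promoter windows came from RefSeq. Alternatives are given in the closing section. The number of arrays limits the precision.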

Additional observations from a re-analysis of the deposited data

How the results depend on the processing

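Over 15 alternatives the number of genes called after USF1 knockdown ran from 3644 to 5364, and S100A4 stayed between 1.23 and 1.35. With 1 array left out at a time, the number of genes called was 3644 to 4365, S100 genes called upward 4 to 6 and downward 0 to 1, list genes called upward 17 to 24 and downward 9 to 12, and S100A4 was 1.23 to 1.35. With no filter on dim probe sets, 16 list genes were called upward, against 26 in the fit reported. With the mean of all probe sets, S100A16 differed by 0.21, ANXA2 by -0.0154 and AGER by -0.0814, the last 2 with the sign turned but not past the threshold in either fit. Of 36 genes other than the 10 S100 genes that were followed singly through the alternatives, 8 changed their call under some alternative (28 losses and 2 gains). The replicate block ended the calls of ANXA1 and MYH9. Deviations from the group means correlated at r of -0.10, 0.20 and 0.09 between samples with the same replicate number. Between unlike numbers r ran from -0.27 to 0.19. These values do not settle whether the arrays were paired. The labels state no pairing, so the numbers were not taken as pairs. With no filter, and with the replicate block, 2 intracellular targets were called upward. With no filter the receptor list had 1 gene upward and the neighbours 2. With a replicate block 4233 genes were called, 5 S100 genes upward, and 20 list genes upward and 12 downward. The limits are the few arrays, dim probe sets near background, and a UGT1A3 pair without replicates.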
